A study of Mus musculus with 12 samples.

Results

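The aquaporins are a family of membrane channels for water, and some members also carry glycerol. The 8 genes described here, Aqp1, Aqp2, Aqp3, Aqp4, Aqp5, Aqp6, Aqp7 and Aqp11, were picked by their symbol among the non-control probes of a whole-genome mouse expression array, out of 24468 genes with a symbol. They are covered by 12 probes, and where a gene had more than 1, the brightest on average over the 12 arrays was used. The rule for the genes used no measured level, although the members were chosen with earlier results of these data known.

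The arrays measured RNA from mouse kidney organoids and mouse kidneys. Organoids were assembled from nephron progenitors and ureteric bud, both made from mouse embryonic stem cells of B6 and 129SV background, together with stromal progenitors from wild-type ICR kidneys at E11.5, a stage given in days of gestation. They were measured after 7 days of culture (day 7, n = 3) and at assembly (day 0, n = 3). One further array held wild-type ICR E11.5 kidney cultured for 7 days, and 5 held fresh wild-type ICR kidney, taken whole without the ureter, at E11.5 and E13.5, at E15.5 and E17.5, and on the day of birth (P0). Cultures stood on a transwell in serum-containing medium with Matrigel. Each kidney array stands alone for its stage. In every test that also used organoids, its spread was assumed to equal that of the organoid replicates. The slope over stages was fitted to the 5 fresh kidney arrays alone, so its SE and p-value measure scatter around a straight line over stages, not spread between replicates. The labels do not say whether replicates were separate cultures. The other p-values thus measure the spread between these samples, which may be technical. The labels also do not say how many kidneys went into a sample.

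In the mature kidney the aquaporins divide the nephron between them. Aqp1 lines the proximal tubule and the descending thin limb, where most filtered water is taken back, and it is also found in endothelium of the vasa recta and in red cells. In the principal cells of the collecting duct, vasopressin binds its receptor Avpr2, cAMP rises, and Aqp2 moves to the apical membrane; water then leaves through Aqp3 and Aqp4 on the basolateral side. Aqp6 sits in vesicles of intercalated cells, Aqp7 carries water and glycerol in the straight part of the proximal tubule, and Aqp11 is an intracellular channel of proximal tubule cells whose loss gives polycystic kidneys in mice. Aqp5 is best known from the apical membranes of salivary, lacrimal and airway glands and has been described in type B intercalated cells.

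Values are log2 processed signal relative to the 75th percentile of the same array. That percentile was 201 to 206 signal units on day 7, 126 to 138 on day 0, and 211 to 287 on the 6 kidney arrays, so day 0 was the dimmest group, and 50.6% to 63.2% of probes were well above background per array. One slide held the 6 kidney arrays and day 0 replicates 1 and 2, and a second slide held day 0 replicate 3 and the 3 day 7 arrays. Day 7 organoids and kidneys therefore never shared a slide. In whole tissue, fewer cells of a type and less RNA per cell cannot be told apart.

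Aqp2, Aqp5 and Aqp6 are direct neighbours on chromosome 15, in that order and with no other protein-coding gene between them, and Aqp3 and Aqp7 are neighbours on chromosome 4. Promoters of 7 of the 8 genes were found in the RefSeq table (GRCm38.p6). The 250 bases upstream of the start site are shown for Aqp1, Aqp2 and Aqp3, which changed in step with kidney stage, and for Aqp5, whose levels in culture stood above every kidney stage. Capitals mark matches, on either strand, to 5 short motifs. They are TATAAA, known as the TATA box, TGACG, which is the core of the cAMP response element, AGATAA, bound by factors of the GATA family, GGGCGG, named the GC box, and CACGTG, named the E box.
Aqp1 promoter, chr6:55336049-55336298, + strand: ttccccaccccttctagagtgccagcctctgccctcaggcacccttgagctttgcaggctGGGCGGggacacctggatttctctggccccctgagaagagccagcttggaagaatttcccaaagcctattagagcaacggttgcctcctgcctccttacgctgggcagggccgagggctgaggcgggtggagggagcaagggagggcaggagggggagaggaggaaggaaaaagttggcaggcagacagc
Aqp2 promoter, chr15:99578806-99579055, + strand: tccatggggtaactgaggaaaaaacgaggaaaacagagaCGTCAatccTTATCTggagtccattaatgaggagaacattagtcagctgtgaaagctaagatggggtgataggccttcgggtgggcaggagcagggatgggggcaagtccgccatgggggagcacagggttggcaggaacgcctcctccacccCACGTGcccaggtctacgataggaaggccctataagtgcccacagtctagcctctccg
Aqp3 promoter, chr4:41098184-41098433, - strand: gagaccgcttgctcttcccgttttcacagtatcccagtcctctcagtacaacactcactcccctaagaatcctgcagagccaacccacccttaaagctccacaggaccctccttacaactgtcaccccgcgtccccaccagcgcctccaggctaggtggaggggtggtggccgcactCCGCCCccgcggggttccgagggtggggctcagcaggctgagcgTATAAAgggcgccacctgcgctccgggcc
Aqp5 promoter, chr15:99590778-99591027, + strand: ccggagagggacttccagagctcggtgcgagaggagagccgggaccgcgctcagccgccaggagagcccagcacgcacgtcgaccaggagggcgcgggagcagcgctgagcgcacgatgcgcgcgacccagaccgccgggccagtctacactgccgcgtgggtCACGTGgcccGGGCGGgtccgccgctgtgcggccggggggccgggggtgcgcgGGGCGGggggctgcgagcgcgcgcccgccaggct

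The promoters of the neighbours Aqp2 and Aqp5 differ in base composition. GC content was 78.4% for Aqp5, which is above 98.1% of the 32851 promoters in the table, and 55.6% for Aqp2, against a median of 52.4% for all promoters. The ratio of observed to expected CpG was 1.01 for Aqp5 and 0.42 for Aqp2, and the median of all promoters was 0.37. Aqp11 followed Aqp5 with a ratio of 0.83, whereas Aqp1 had 0.21 and Aqp6 0.14.
The Aqp2 window holds a cAMP element core whose first base lies at -211, a GATA site at -202 and an E box at -58. Of all promoters, 17.8% hold such a core, 9.99% a GATA site and 6.02% an E box. Aqp5 holds an E box at -87 and GC boxes at -77 and -34, and Aqp6 an E box at -29. Aqp3 has a TATA box at -29, as do 12.4% of promoters somewhere in this window, and a GC box at -73. The Aqp1 window holds 1 GC box, at -190, a motif found in 32.7% of promoters. The searched motifs do not overlap in these windows, and a match is a description of letters, not of binding. The short NFAT core TTTCC was also searched but not marked, since 55.6% of promoters hold it.

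The array read Aqp2 with 1 probe, whose 60 bases span 977 bases of the mm9 genome and therefore cross an intron. Aqp4, Aqp5, Aqp6 and Aqp11 had 2 probes each. The Aqp2 probe and the dimmer probes of Aqp5 and Aqp11, which served as a second reading of those genes, are shown with their mm9 positions.
Aqp2 probe, chr15:99412578-99413554, + strand: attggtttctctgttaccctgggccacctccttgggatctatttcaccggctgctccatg
Aqp5 second probe, chr15:99424655-99424714, + strand: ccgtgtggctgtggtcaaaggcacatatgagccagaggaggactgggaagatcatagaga
Aqp11 second probe, chr7:104877482-104877541, - strand: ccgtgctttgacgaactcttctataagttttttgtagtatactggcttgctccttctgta

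During kidney development from E11.5 to P0, 7 of the 8 aquaporins rose along the stage series and Aqp7 did not pass the test. A slope over the 5 stages was fitted with limma and called at a Benjamini-Hochberg adjusted p under 0.05 over all 19035 genes tested, of which 12.5% were called higher and 27.2% either way. The median slope of the 8 aquaporins was 1.29 log2 units per stage, against -0.05 for all genes tested. All 8 stood more than 2-fold higher at P0 than at E11.5, a comparison of 1 array with 1 array that has no test and in which 32.6% of genes passed 2-fold either way. After normexp, Aqp5 (0.91) and Aqp7 (0.45) were within 2-fold on that log2 scale. The count of 7 fell to 4 without the E17.5 array, where the calls among all genes fell from 5185 to 1156. It fell to 2 without the P0 array, where the calls among all genes fell to 537. Calls were thus lost over the whole array and not among the aquaporins alone.

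Aqp1, the channel of the proximal tubule and thin limb, had the largest first step of the 8 genes. Its level was -2.05 at E11.5, 1.94 at E13.5, 3.63 at E15.5, 4.89 at E17.5 and 6.04 at P0. Each stage was above the one before, and the first step, 15.9-fold between E13.5 and E11.5, was its largest. The slope was 1.91 ± 0.26 log2 units per stage (SE, adjusted p = 0.0132, limma), and P0 was 273-fold above E11.5. Without the E17.5 array the slope was 1.90 with an adjusted p of 0.0508, and without P0 it was 2.25 with 0.057.
Red cells and endothelium also carry this channel. The summed level of the 8 erythroid markers was 87.3 at P0 and 766 at E11.5, lower at P0, and the part of red cells in the Aqp1 series was not tested. Endothelial markers summed to between 23.5 and 36.7 over the 5 stages, while the 12 proximal tubule markers summed to 716 at P0 and 2.72 at E11.5. Of those 12 markers, 11 rose with stage, where 12.5% of all genes did. Slopes were 3.52 ± 0.47 for Slc34a1, 3.08 ± 0.36 for Miox and 2.88 ± 0.23 for Slc5a2 (SE). Slc34a1 and Slc5a2 were below background at E11.5, and their fits include that stage.

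Among the channels of the principal cell, Aqp3 had its largest step one stage before Aqp2. Aqp3 levels were -1.98 at E11.5, -0.68 at E13.5, 2.58 at E15.5, 3.53 at E17.5 and 3.75 at P0. Aqp2 levels were -1.91 at E11.5, -1.63 at E13.5, 0.46 at E15.5, 2.89 at E17.5 and 3.47 at P0. The largest step of Aqp3 was 9.62-fold, between E15.5 and E13.5, and that of Aqp2 was 5.41-fold, between E17.5 and E15.5. The timing of these steps was not tested, since each stage has 1 array. Slopes were 1.57 ± 0.24 for Aqp3 (SE, adjusted p = 0.0157, limma) and 1.53 ± 0.18 for Aqp2 (adjusted p = 0.0103). Aqp3 lost the call without E11.5 (adjusted p = 0.0644) or E17.5 (0.0552), and Aqp2 without P0 (0.0627).
Aqp4, the second basolateral channel, was at -2.77 at E11.5, -2.60 at E13.5, -1.21 at E15.5, -0.57 at E17.5 and 0.36 at P0. E11.5 and E13.5 differed by 0.17, less than the SD of 0.22 between day 0 organoid replicates for this probe, and the later stages stepped upward. Its slope was 0.83 ± 0.08 (adjusted p = 0.00872, limma), and without P0 it was 0.80 with an adjusted p of 0.064. Markers of glia and neurons, cells that also use Aqp4, summed to 22.2 at P0 and 15.0 at E11.5. Of these 8 markers, 1 rose and 3 fell by the slope test, where 12.5% of all genes rose and 27.2% were called either way. At P0, 2 stood past 2-fold above E11.5 and 4 past 2-fold below, so the sum does not stand for the whole list. The part of these cells in the Aqp4 slope was not tested.

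Of the remaining members of the family, Aqp5, Aqp6 and Aqp11 rose with stage and Aqp7 did not pass the test. Aqp6, the vesicle channel of intercalated cells, was at -4.34 at E11.5, -5.27 at E13.5 where it was not well above background, -3.60 at E15.5, -0.47 at E17.5 and 1.79 at P0. The steps were 8.78-fold between E17.5 and E15.5 and 4.79-fold between P0 and E17.5, the largest last step of the 8 genes. The slope was 1.71 ± 0.34 (adjusted p = 0.0281, limma), and the call was lost without E13.5 (0.0561), E17.5 (0.0835) or P0 (0.182).
Aqp5 was not well above background at E11.5 or E13.5 and stood at -3.00, -2.63 and -1.91 at E15.5, E17.5 and P0. It was at least 10.5-fold higher at P0 than at E11.5, and its slope was 1.04 ± 0.12 (adjusted p = 0.0106, limma), a fit that includes the 2 stages below background. Without P0 the adjusted p was 0.0522, and after normexp background correction, which compresses dim signals, the slope was 0.23. The dimmer Aqp5 probe gave a slope of 0.69 with an adjusted p of 0.125.
Aqp11 climbed in even steps of 1.53-fold to 2.17-fold, from -0.78 at E11.5 through 0.24, 1.06 and 2.17 to 2.79 at P0, with a slope of 0.91 ± 0.05 (adjusted p = 0.00609, limma). Its second probe gave 0.89. Aqp7 lay between -3.13 and -2.84 at E11.5, E13.5 and E15.5 and reached -2.17 at E17.5 and -1.67 at P0, with a slope of 0.33 ± 0.09 and an adjusted p of 0.06, or 0.51 with 0.0243 when E11.5 was left out.

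**Figure D1:**
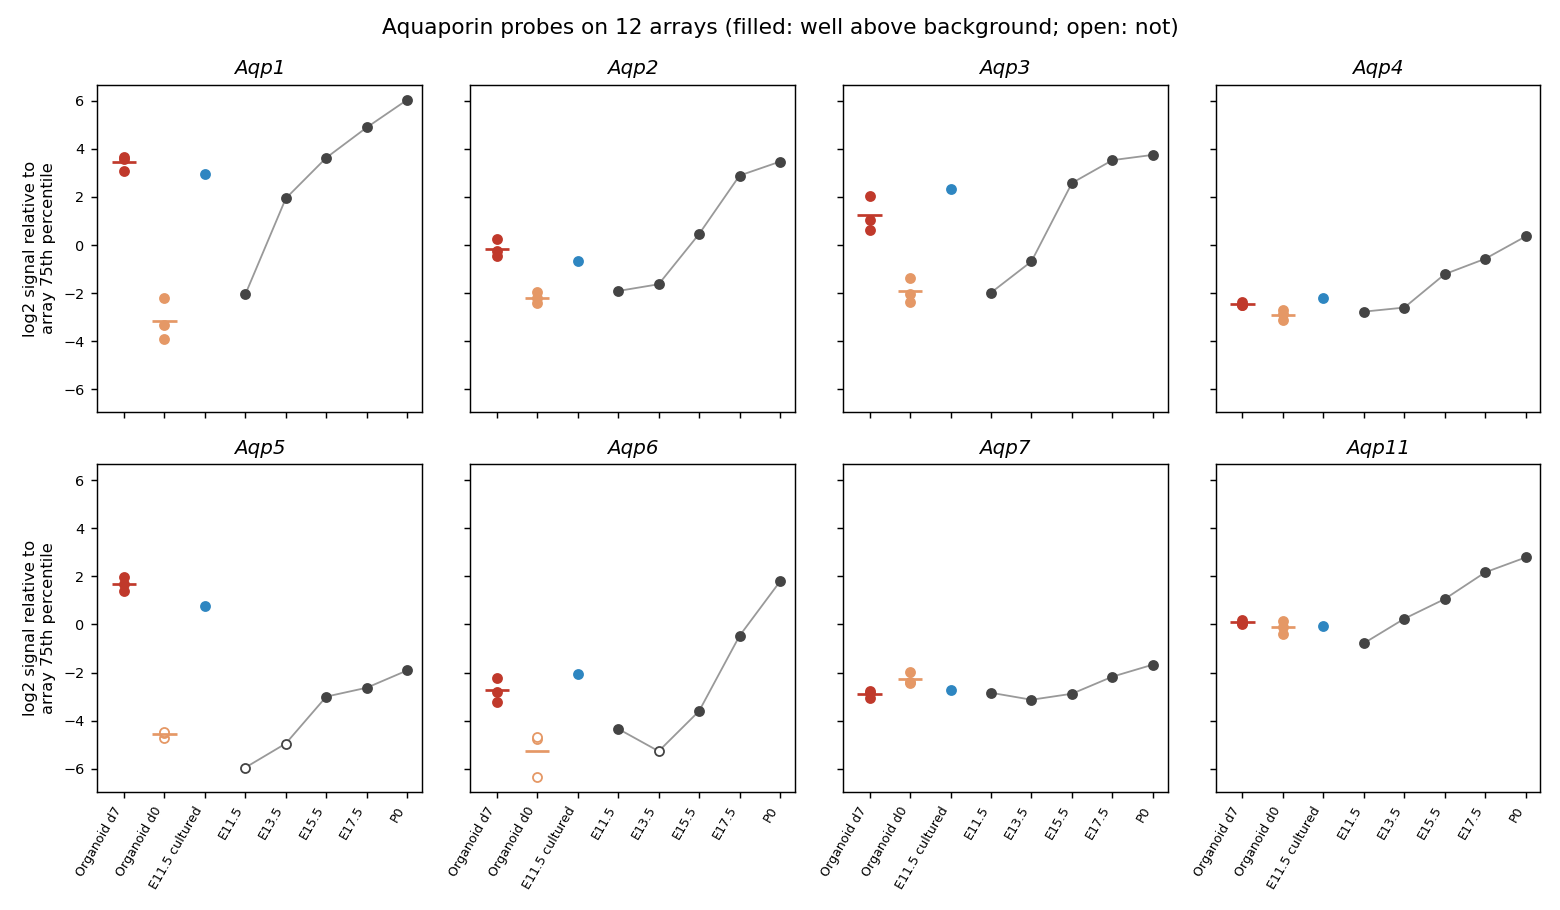
Log2 signal relative to the array's 75th percentile for the 8 aquaporins on all 12 arrays, with day 7 and day 0 organoids (points are replicates, bars are means of 3), the cultured E11.5 kidney, and the 5 fresh kidney stages joined by a line. Open points are not well above background. Aqp1 day 7 points lie between 3.09 and 3.65, next to the E15.5 kidney at 3.63, and Aqp5 day 7 points lie between 1.41 and 1.98, above every kidney array.

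Over 7 days of organoid culture, 6 of the 8 aquaporins rose, Aqp7 fell, and Aqp11 did not pass the test. Of the 6, Aqp5 and Aqp6 were below background on every day 0 array and entered the test through day 7 alone. The comparison of day 7 with day 0 used limma on the 6 organoid arrays. It called 69.9% of the 16630 genes tested, 28.4% of them higher and 41.5% lower, so a call alone was common here. The median difference of the 8 aquaporins was 2.27 on the log2 scale, or 1.91 with Aqp5 and Aqp6 at their bounds, against -0.17 for all genes tested. After normexp the differences were smaller, at 4.46 for Aqp1, 3.03 for Aqp5, 2.15 for Aqp3 and 1.05 for Aqp2, all still called.

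Aqp1 and Aqp5 had the largest changes of the family. Aqp1 was at 3.65, 3.09 and 3.58 in day 7 organoids, against -2.22, -3.34 and -3.91 in day 0 organoids. The groups were far apart, with a difference of 6.60 ± 0.42 (SE), or 96.8-fold (adjusted p = 2.88e-05, limma). With the slide as a block, which here compares day 7 with the 1 day 0 array of the same slide, the difference was 7.35 (adjusted p = 0.000257). The erythroid markers summed to between 0.160 and 0.305 on day 7 and between 16.7 and 54.0 on day 0, lower on day 7. Endothelial markers summed to 15.56, 10.25 and 15.06 on day 7 and 13.56, 12.31 and 12.44 on day 0. Of these 8 markers, 7 rose and Kdr fell, where 28.4% of all genes rose and 41.5% fell. Among the 7, 1 was below background on all 3 day 0 arrays. The part of red cells or endothelium in the Aqp1 change was not tested.
Aqp5 was at 1.41, 1.98 and 1.69 in day 7 organoids, against -4.72, -4.51 and -4.49 in day 0 organoids, where none of the 3 arrays was well above background. It was therefore at least 68.7-fold higher on day 7. The adjusted p of 1.94e-06 (limma) is for the measured signals, not for that bound. The second Aqp5 probe, also below background on all 3 day 0 arrays, was at -0.56, -0.10 and -0.47 on day 7.

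The principal-cell channels followed with smaller changes. Aqp3 was at 1.05, 2.02 and 0.63 in day 7 organoids, against -2.03, -1.39 and -2.35 in day 0 organoids. Every day 7 value was above every day 0 value, and the difference was 3.15 ± 0.40, or 8.89-fold (adjusted p = 0.000544, limma). Aqp2 was at -0.47, 0.27 and -0.26 in day 7 organoids, against -1.94, -2.19 and -2.43 in day 0 organoids. The difference was 2.04 ± 0.22, or 4.10-fold (adjusted p = 0.000246, limma), again without overlap, as for 76.0% of all genes tested.
Aqp4 was at -2.36, -2.50 and -2.48 on day 7, against -2.85, -3.13 and -2.70 on day 0. Its difference of 0.45 ± 0.12 (adjusted p = 0.0167, limma) was 0.25 with the slide as a block (adjusted p = 0.178), 0.41 without day 7 replicate 1 (0.0605) and -0.16 after normexp background correction (0.0452). The second Aqp4 probe, which was below background on 2 of the 3 day 0 arrays, gave 1.91 (adjusted p = 0.00147). Markers of glia and neurons summed to between 9.76 and 11.9 on day 7 and between 18.4 and 20.7 on day 0. Of these 8 markers, 3 rose and 4 fell (median difference 0.12), where 28.4% of all genes rose and 41.5% fell. The part of these cells in the Aqp4 change was not tested. The size of the Aqp4 change thus differed between probes, and its sign between background corrections.

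Day 7 replicate 2 had the highest Aqp2, Aqp3, Aqp5 and Aqp6 of the 3 day 7 organoids, and it also had the most urothelial and stratified epithelial RNA. The 6 markers of that list summed to 8.72, 33.6 and 2.28 in day 7 replicates 1, 2 and 3, and to 0.359, 0.252 and 0.171 in day 0 replicates 1, 2 and 3. Day 7 replicate 3, with the lowest sum, had higher Aqp5 (1.69 against 1.41) and Aqp2 (-0.26 against -0.47) than replicate 1. Its Aqp3 (0.63 against 1.05) and Aqp6 (-3.21 against -2.81) were lower. The summed level of the 8 principal-cell markers was also highest in replicate 2, at 39.1, 51.4 and 38.4 in day 7 replicates 1, 2 and 3. All 5 urothelial markers that could be tested rose, where 28.4% of all genes rose and 41.5% fell. Of the 5, 2 were below background on all 3 day 0 arrays and entered the test through day 7 alone. Upk3a, 1 of these 2, was at least 49.3-fold higher on day 7. Krt20, below background on 2 of the day 0 arrays, was up by 4.91 ± 0.66 on the log2 scale (SE). Aqp3 is also known from urothelium and skin, and the part of these cells in its change was not tested. Without day 7 replicate 2 the difference was 2.76 for Aqp3, 1.82 for Aqp2 and 6.12 for Aqp5, all still called.

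The other 3 genes are channels of intercalated cells (Aqp6) and of the proximal tubule (Aqp7 and Aqp11). Aqp6 was at -2.81, -2.21 and -3.21 in day 7 organoids and not well above background on any day 0 array, so it was at least 3.45-fold higher. It was called on the measured signals (adjusted p = 0.00352, limma). That call was lost with the slide as a block (difference 1.94, adjusted p = 0.051) and after normexp (0.07, adjusted p = 0.488). Aqp7 was at -3.07, -2.85 and -2.78 on day 7, against -2.38, -2.43 and -1.99 on day 0, and fell by 0.63 ± 0.14 on the log2 scale (adjusted p = 0.00729, limma). Every day 7 value of Aqp7 lay below every day 0 value. Aqp11 was at 0.17, 0.08 and 0.01 on day 7, against 0.15, -0.09 and -0.38 on day 0. These values overlap, and the difference was 0.20 ± 0.14 with a 95% interval of -0.14 to 0.54 (adjusted p = 0.248, limma), but with the slide as a block it was 0.47 (adjusted p = 0.0299).
The adipocyte list bears on Aqp7, which fat cells also use for glycerol: Adipoq and Cidec were below background on every kidney and day 0 array, and the list summed to 10.17, 8.68 and 13.57 on day 7 and 1.37, 1.07 and 1.23 on day 0, higher on day 7. Cidec was below background on every day 7 array as well. Of the 4 markers of the list that could be tested, 2 rose and 1 fell on day 7 (median difference 0.71), where 28.4% of all genes rose and 41.5% fell. The part of fat cells in the Aqp7 change was not tested.

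In the E11.5 kidney cultured for the same 7 days, 5 of the 8 genes were past 2-fold higher than in the fresh kidney, from 1 array each and so with no test. Aqp5 was at 0.75 in the cultured kidney and below background in the fresh E11.5 kidney, a difference of at least 66.7-fold. The cultured kidney was 32.3-fold above the fresh E11.5 kidney for Aqp1, 20.0-fold for Aqp3, 4.86-fold for Aqp6 and 2.34-fold for Aqp2, while Aqp4, Aqp7 and Aqp11 lay within 2-fold. Of all genes, 13.0% passed 2-fold upward. After normexp, 3 of the 8 passed 2-fold.
Whether the change in organoids exceeded the change in kidney was tested as a difference of differences, which called 15.3% of the 18006 genes tested and none of the 8 aquaporins (limma). At an unadjusted p under 0.05 it took in Aqp7 alone (difference of differences -0.74 ± 0.30, adjusted p = 0.141). The 95% interval was -0.54 to 3.70 for Aqp1, -3.18 to 0.85 for Aqp3 and -0.28 to 1.89 for Aqp2, so these arrays leave room for differences of several fold. It was -0.76 to 0.48 for Aqp4 and -1.22 to 0.19 for Aqp11. For Aqp5 and Aqp6, below background on day 0 and Aqp5 also at E11.5, no interval is given.

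**Figure D2:**
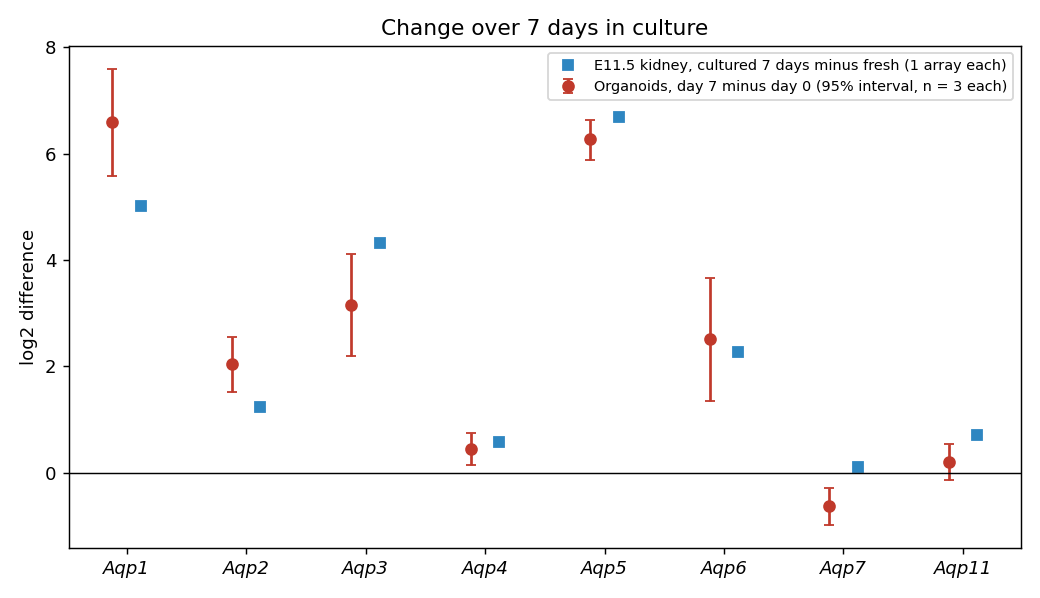
Log2 difference over 7 days of culture for each aquaporin. Red circles are day 7 minus day 0 organoids with 95% intervals (n = 3 each), and blue squares are the cultured minus the fresh E11.5 kidney (1 array each). Aqp5 differs by 6.27 in organoids and 6.70 in kidney from signals below background, which the text gives as bounds, while Aqp1 differs by 6.60 and 5.01 and Aqp11 by 0.20 and 0.71.

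Set against the cultured E11.5 kidney, day 7 organoids had no aquaporin that passed the test, where 7.74% of 17136 genes were called (limma, 0 of 8). Aqp5 alone had an unadjusted p under 0.05: it was 0.94 ± 0.22 higher in day 7 organoids (adjusted p = 0.0582, 95% interval 0.40 to 1.49), and it was called with trended, robust moderation (adjusted p = 0.0394), after normexp (0.0164) and with median scaling (0.0284), where the median of all genes itself moved by 0.19. The interval was -2.50 to 0.28 for Aqp3, -2.38 to 1.0 for Aqp6, -0.99 to 1.94 for Aqp1 and -0.23 to 1.27 for Aqp2. For Aqp4, Aqp7 and Aqp11 it lay within 0.69 of 0 on both sides.

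At the start of culture, day 0 organoids were set against the fresh E11.5 kidney. Of the 7 aquaporins that could be tested, Aqp11 was called higher, against 17.4% of 17250 genes called higher and 32.9% called either way. Aqp11 averaged -0.11 ± 0.26 in day 0 organoids (SD, n = 3) and was -0.78 in the E11.5 kidney (difference 0.67 ± 0.20, adjusted p = 0.0483, limma). The call was lost without day 0 replicate 1 (0.54, adjusted p = 0.0657) or 2 (0.66, 0.0806), and without any 1 day 7 array, which share in the estimate of the spread (0.0771 to 0.0776). Aqp1 was 1.11 ± 0.61 lower on the log2 scale in day 0 organoids (adjusted p = 0.208) and was called without day 0 replicate 1 (-1.57, adjusted p = 0.0274), while Aqp5 was below background in both. Aqp7 was 0.57 ± 0.21 higher in day 0 organoids without passing the test (adjusted p = 0.0806). The 95% interval of the difference was -1.04 to 0.47 for Aqp2, -1.34 to 1.46 for Aqp3 and -0.55 to 0.31 for Aqp4, and Aqp6 was below background in all 3 day 0 organoids (adjusted p = 0.35).

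Compared with the developing kidney, day 7 organoids were nearest to E15.5 for Aqp1, Aqp2 and Aqp3, nearest to E13.5 for Aqp4 and Aqp11, and above every stage for Aqp5. Day 7 Aqp1, at 3.44 ± 0.31 (SD, n = 3), lay 0.20 below the E15.5 kidney (95% interval of the difference -1.70 to 1.31, adjusted p = 0.829, limma). Day 7 Aqp2, at -0.15 ± 0.38, lay between E13.5 and E15.5 and 0.61 below E15.5 (interval -1.38 to 0.16). Day 7 Aqp3, at 1.23 ± 0.71, lay between the same stages and 1.35 below E15.5 (interval -2.79 to 0.08), or 1.75 below without day 7 replicate 2 (-1.75, adjusted p = 0.044). With the slide as a block, Aqp1 was instead 0.94 above E15.5 (adjusted p = 0.411). The interval of the difference from E15.5 was -0.88 to 2.60 for Aqp6 and -0.54 to 0.49 for Aqp7, neither of which passed the test.
Aqp4 and Aqp11 lay further back. Day 7 Aqp4 averaged -2.45 ± 0.07, nearest E13.5, and was 1.23 ± 0.18 below E15.5 (adjusted p = 0.00569, limma). Day 7 Aqp11 averaged 0.09 ± 0.08, also nearest E13.5, and was 0.97 ± 0.21 below E15.5 (adjusted p = 0.0188, limma), a call lost with the slide as a block (adjusted p = 0.14). These were the 2 members called lower than E15.5, and Aqp5 the 1 called higher, where 15.3% of 18167 genes were called lower, 14.5% higher and 29.8% either way.

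The gap widened at later stages. Against E17.5, Aqp2 was 8.27-fold lower, Aqp3 4.93-fold, Aqp11 4.23-fold, Aqp4 3.67-fold and Aqp7 1.66-fold lower in day 7 organoids, with adjusted p between 0.00112 and 0.0449 (limma), while 14.0% of 18069 genes were called lower, 16.2% higher and 30.2% either way. The Aqp3 call was lost with the slide as a block (adjusted p = 0.267), without day 0 replicate 1 (0.0519) and without day 7 replicate 1 (0.0741) or 3 (0.0562). The Aqp7 call was lost without day 0 replicate 1 (0.0647) and without day 7 replicate 1 (0.0987), 2 (0.0834) or 3 (0.0698). Aqp1 (-1.45, adjusted p = 0.125) and Aqp6 (-2.27, adjusted p = 0.0566) did not pass the test, but both did without day 0 replicate 1 (0.0293 and 0.0132).
Against P0, all members but Aqp5 were called lower in day 7 organoids, in a comparison that called 18.0% of 17843 genes lower, 24.3% higher and 42.3% either way. Aqp6 was 23.2-fold lower, Aqp2 12.3-fold, Aqp4 6.99-fold, Aqp11 6.48-fold, Aqp1 6.08-fold, Aqp3 5.75-fold and Aqp7 2.35-fold lower, with adjusted p between 0.000186 and 0.0179 (limma). In day 7 organoids Aqp1 thus reached 16.4% of its P0 level, Aqp3 17.4%, Aqp2 8.14% and Aqp6 4.32%. With the slide as a block, the calls of Aqp1 (-1.47, adjusted p = 0.195) and Aqp3 (-1.88, adjusted p = 0.179) were lost.

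Aqp5 ran the other way at every stage tested. Day 7 organoids averaged 1.69 ± 0.29, against -3.00 in the E15.5 kidney, -2.63 at E17.5 and -1.91 at P0. They were 25.9-fold above E15.5 (adjusted p = 0.000232, limma), 20.0-fold above E17.5 (adjusted p = 2e-04) and 12.2-fold above P0 (adjusted p = 0.000175). After normexp the log2 differences were smaller and still called, at 3.29, 3.11 and 2.8 in place of 4.69, 4.32 and 3.61. The cultured E11.5 kidney, at 0.75, was also above every fresh stage, so the high level was found in both cultured tissues and not in the organoids alone. The calls held with the slide as a block (adjusted p 0.00541 to 0.0079) and with the second probe, which read 3.32 above P0.
Of 6 markers of lung and gland epithelium, where Aqp5 is best known, Sftpb, Sftpc and Nkx2-1 were below background on all 12 arrays. The other markers, Sftpd, Scgb1a1 and Ager, were dim, and the 6 summed to between 0.203 and 0.213 on day 7, between 0.119 and 0.181 on day 0 and to 0.220 at P0. Of the 2 that could be tested, 1 rose on day 7 over day 0, where 28.4% of all genes rose. Of 3 tested, 1 was called higher on day 7 than at E15.5, where 14.5% of all genes were. The urothelial list stood at 2.28 to 33.6 on day 7, 9.38 in the cultured kidney and 9.08 at P0. Aqp5 on the same arrays was at 1.41 to 1.98, 0.75 and -1.91. The part of urothelial cells in the level of Aqp5 was not tested. Of the intercalated-cell markers, Slc26a4, which defines type B cells, was below background on day 7. All 9 were lower on day 7 than at P0, where 18.0% of all genes were lower. Of 7 that could be tested over culture, 5 rose and 1 fell on day 7 relative to day 0, where 28.4% of all genes rose and 41.5% fell. Among the 5, 3 were below background on all 3 day 0 arrays and entered the test through day 7 alone. The median difference was 2.46, or 1.08 with genes below background at their bound, against -0.17 for all genes. Against the cultured kidney, 2 of 7 were called higher and 1 lower, where 7.74% of all genes were called either way. The part of intercalated cells in the level of Aqp5 was not tested.

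**Figure D3:**
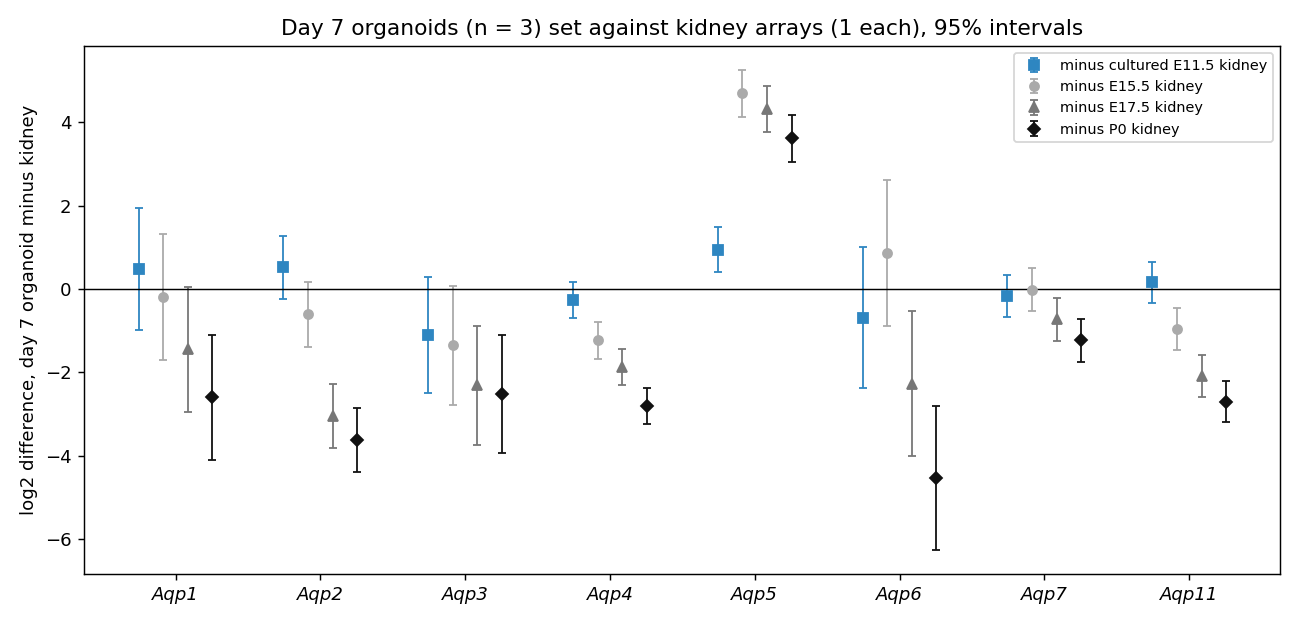
Log2 difference of day 7 organoids (n = 3) from the cultured E11.5 kidney and from the E15.5, E17.5 and P0 kidneys (1 array each), with 95% intervals from the 12-array limma fit. Points above 0 are higher in organoids. Aqp5 is 3.61 to 4.69 above the fresh stages shown, and the other 7 genes are at -4.53 to -1.23 relative to P0.

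The 2 probes of Aqp6 disagreed. The brighter Aqp6 probe, whose target starts at base 2000 of the transcript, was at 1.79 at P0 and well above background on 8 of the 12 arrays. The dimmer probe, starting at base 830, lay between -7.70 and -5.31 and was not well above background on any array. The Aqp6 values above therefore rest on 1 probe near the end of the transcript, and the disagreement was not tested further. Both Aqp11 probes gave nearly the same stage series, and the P0 value was 2.79 for the brighter and 1.34 for the dimmer.

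**Figure D4:**
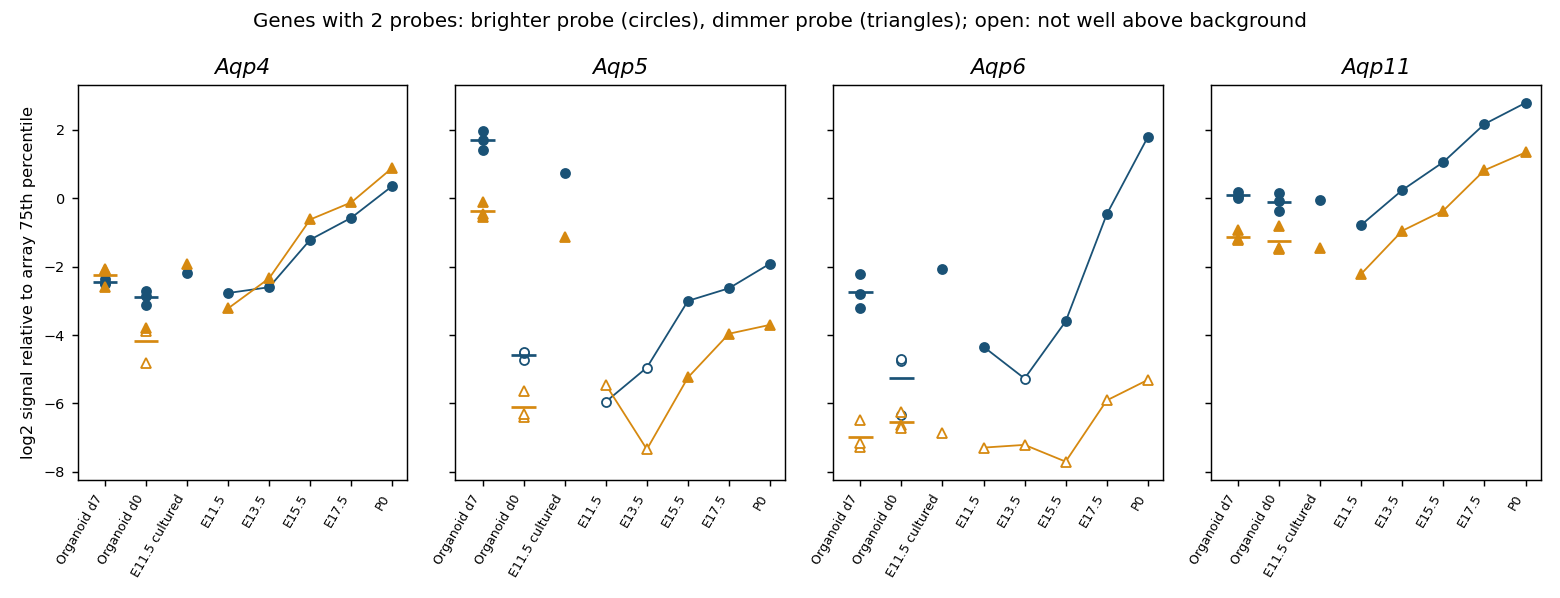
Log2 signal relative to the array's 75th percentile for the 4 aquaporins with 2 probes. Circles are the brighter probe, used in the text, and triangles the dimmer one, with open symbols where a probe was not well above background, and bars are means of 3 organoid replicates. The dimmer Aqp6 probe is below background on all 12 arrays, while the brighter one reaches 1.79 at P0.

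Of the 4 other family members on the array, Aqp8 alone was measurable. Aqp8, a channel also found in inner mitochondrial membranes, was at 0.35, 0.24 and 0.38 in day 7 organoids, against -3.51, -3.80 and -3.74 in day 0 organoids, a 16.1-fold difference (adjusted p = 1.94e-06, limma). It was 6.28-fold above the cultured E11.5 kidney (adjusted p = 0.000524), and its change in organoids exceeded that in kidney (difference of differences 4.72 ± 0.20, adjusted p = 0.00105). The same test called none of the 8 aquaporins described above and 15.3% of all genes. Aqp8 had a second, dimmer probe that was well above background on 4 of the 12 arrays. These were day 7, at -3.61, -4.14 and -4.44, and P0, at -4.11. The dimmer probe was below background in the fresh E11.5 kidney, where the brighter one was at -1.61. The difference of differences therefore rests on the brighter probe and on 1 fresh and 1 cultured kidney array. Aqp9, Aqp12 and Mip, the lens channel also named Aqp0, were not well above background on any array.

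In the vasopressin system that moves Aqp2, the receptor had the largest difference of the list. Among the 22 genes of the vasopressin-regulated water reabsorption list, 6 rose and 12 fell in day 7 relative to day 0 organoids, with a median difference of -0.28 against -0.17 for all genes. Of all genes tested, 28.4% rose and 41.5% fell, so the share of the list that rose was near that of all genes. Avpr2, the V2 receptor, was at -1.53, -1.06 and -1.44 in day 7 organoids and below background on all 3 day 0 arrays. It was therefore at least 9.71-fold higher on day 7 (adjusted p = 3.08e-06 for the measured signals, limma). The next largest changes were smaller: Akap7, a kinase anchor, fell by 1.18 ± 0.09, Rab11b, a recycling GTPase, fell by 0.89 ± 0.07, and Adcy3, an adenylyl cyclase, rose by 0.92 ± 0.11. Avpr2 was lower on day 7 than in the cultured kidney (-1.06, adjusted p = 0.0465) and than at P0 (-1.97, adjusted p = 0.00156).
Of the 8 principal-cell markers, 7 rose with culture, where 28.4% of all genes rose and 41.5% fell. Among the 7, 2 were below background on all 3 day 0 arrays. The median difference of the 8 was 2.55, or 2.19 with genes below background at their bound. Hsd11b2, which protects the mineralocorticoid receptor from cortisol-like steroids, fell by 1.36 ± 0.15. Fxyd4, a sodium pump subunit, rose by 6.73 ± 0.53, and Scnn1b, an epithelial sodium channel subunit, by 3.63 ± 0.25. Against P0, Scnn1a (-3.73), Scnn1g (-2.50) and Avpr2 (-1.97) were the 3 markers lower on day 7, where 18.0% of all genes were lower. The summed level of the 8 markers was 38.4 to 51.4 on day 7, 51.6 in the cultured kidney and 62.8 at P0. Such a sum gives most weight to the brightest markers. Day 7 Aqp2 was at 8.14% of P0, a log2 difference of -3.62, which lies between those of Scnn1a and Scnn1g.

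Most genes for urine concentration and osmolytes rose over culture as well. Of 10 tested genes for urine concentration and osmolytes, 9 rose on day 7 over day 0 (median 2.88, or 2.20 with genes below background at their bound), where the shares over all genes were 28.4% higher and 41.5% lower. The Na-K-2Cl cotransporter Slc12a1 was below background on all 3 day 0 arrays and at least 6.84-fold higher on day 7 (adjusted p = 2.18e-05 for the measured signals, limma). The potassium channel Kcnj1, below background on day 0 replicate 3, was at 0.78, 0.40 and 0.80 on day 7, against -3.12, -3.63 and -6.66 on day 0. Slc5a3, the inositol transporter, differed by 0.14 (adjusted p = 0.178). Against P0, 5 of 11 genes of this list were lower on day 7 and 1 higher (median -1.79), where 18.0% of all genes were lower and 24.3% higher. In the cultured E11.5 kidney, 8 of 11 stood past 2-fold above the fresh one (1 array each), where 13.0% of all genes did. Against that cultured kidney, 2 of 10 tested were called lower in day 7 organoids, where 7.74% of all genes were called either way. Among 11 transcription factors named as candidate regulators of aquaporins or of the epithelia that carry them, 10 rose and Gata2 fell (median 2.30), beside 28.4% of all genes higher and 41.5% lower. Hnf4a, the proximal tubule factor, rose by 5.62 ± 0.43, Elf3 by 3.98 ± 0.21 and Elf5 by 3.33 ± 0.26. Against P0, those lower on day 7 included Hnf4a (-2.51) and Tfcp2l1 (-2.0), and Elf3 (1.42) was higher.
The 12 proximal tubule markers were all lower on day 7 than at P0, with a median difference of -5.62 (0.09 for all genes), where 18.0% of all genes were lower. Slc5a12, below background on all 3 day 7 arrays, was at least 519-fold lower on day 7. Miox was at -9.60, Slc5a2, below background on 2 of the 3 day 7 arrays, at -8.76, and Gatm at -7.18, while Aqp1 was at -2.60. Their summed level was 22.5 to 28.2 on day 7, 17.4 in the cultured kidney and 76.4 at E15.5, the stage nearest to day 7 Aqp1.

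Across all 12 arrays, the genes with profiles nearest to each aquaporin were found among 19606 genes as those with the smallest root-mean-square difference of mean-centred log2 values, a description with no test. For Aqp1 they were Rhbg (0.46), Habp2 (0.59) and Asb9 (0.61), and for Aqp2 Aldh1l1 (0.35), Cyp4a31 (0.37) and Slc5a9 (0.39). Those for Aqp3 included Mab21l4 (0.53) and Atp1b1 (0.57). For Aqp11 they were Aldh4a1 (0.24), Gm7932 (0.24) and Acadm (0.26).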

How the data were processed

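RNA from 12 samples was hybridised to 12 one-colour Agilent mouse arrays. The deposited intensity values are processed signals, background-subtracted and detrended by Agilent Feature Extraction 11.5.1.1 per the file headers, while the submitters' processing notes name version 10.7.3.1; probe positions are in mm9 per the file headers. The authors' deposited log2 table equals these signals minus 1 constant per array, and it served as an alternative. Here, log2 signals were averaged over the spots of a probe, outliers left out, and expressed relative to the 75th percentile of the array. Accessions matched to a RefSeq table named 28026 of 55681 probes; symbols named 3418, synonyms 295 and the file's own name 2036, which left 21906 unnamed. The brightest probe stood for a gene. Testing required signal well above background throughout 1 of the groups compared (on any array for stages). A fold against a group below background is a lower bound against the lowest signal well above background. An adjusted p beside such a bound is for the measured signals, and the gene entered the test through the other group alone.

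Tests used limma 3.58.1 in R 4.3.3 with Benjamini-Hochberg adjustment over all genes tested: day 7 against day 0 on 6 arrays, the stage slope on 5, and the rest in a fit of 8 groups on 12 arrays. Values with ± are SE for differences and slopes and SD for group means. The scripts were tested on simulated data. All 8 aquaporins are named in each comparison, and for marker lists at most 4 called genes with the largest change; Hsd11b2, Gata2, Kdr and Slc5a3, the exceptions in their lists, and Sftpd, Scgb1a1 and Ager were named after their values were seen. Some genes that this rule or the nearest-profile rule picks are not reported here. The members and lists were chosen with earlier results of these data known. Replicate numbers did not pair the samples (correlations of same-numbered deviations -0.01, -0.14 and -0.01). Alternatives were normexp background correction, quantile and median scaling, the authors' table, other filters and probes, robust moderation, the slide as a block and leaving out arrays; the number of arrays limits the precision. Figures were drawn with matplotlib.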

Additional observations from a re-analysis of the deposited data

How the results depend on the processing

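Over the alternatives, 963 values of single aquaporins kept their direction and side of the threshold, or moved by less than the spread where untested. Another 38 lost a call, 21 gained one, 23 changed sign and 20 untested ones moved. Of the counts, 32 moved by more than 1.5 times and 232 did not. The 963 include values that had little or no room to change. The authors' table was scaled nearly as here, and the probe settings left the levels of Aqp1, Aqp2, Aqp3 and Aqp7, with 1 probe each, as they were. The number of aquaporins called for day 7 against the cultured kidney, 0 of 8, became 1 after normexp, median scaling or robust moderation, each time Aqp5. For day 0 against the E11.5 kidney it became 4 after normexp and ranged from 0 to 1 when 1 array was left out; for day 7 against E15.5 it became 5 after normexp. The difference of culture changes gave 3 after normexp, and the cultured against the fresh E11.5 kidney 3 after normexp. The stage slopes gave 2 to 7 calls when 1 stage was left out. With the replicate number as a block, day 7 against day 0 still called 7 of 8 aquaporins, and 10583 genes in all.

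The changes of sign were as follows. After normexp they were Aqp4 between day 7 and day 0 (-0.16), Aqp7 against the cultured kidney (0.03) and E15.5 (0.19), Aqp1 (0.00), Aqp2 (0.15), Aqp4 (0.32) and Aqp6 (0.42) between day 0 and the E11.5 kidney, and Aqp5 (0.10) and Aqp6 (-0.67) in the difference of culture changes. Aqp7 also turned against the cultured kidney with median scaling (0.02), and against E15.5 with quantile (0.03) or median scaling (0.08) or without day 7 replicate 1 (0.06; leaving out 1 array gave -0.08 to 0.06). Aqp3 turned between day 0 and the E11.5 kidney without day 0 replicate 2 (-0.21 to 0.27 over the arrays left out), and Aqp1 against E15.5 with the slide as a block (0.94). In the difference of culture changes, the mean of probes turned Aqp4 (0.24), Aqp5 (0.49) and Aqp6 (-0.31), the dimmer probe, an alternative chosen after seeing the data, turned Aqp4 (0.61) and Aqp5 (1.42), and Aqp6 turned with the slide as a block (-0.34), without day 0 replicate 1 (-0.31) and without day 7 replicate 2 (-0.04; -0.31 to 0.51 over the arrays left out). The cause was not tested.

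Counts over all genes moved by more than 1.5 times in several settings. For day 7 against the cultured kidney 1326 became 3033 after normexp, 864 without a background filter, 2105 with robust moderation and 212 with the slide as a block, and 547 to 1658 when 1 array was left out. Normexp gave 9821 in place of 5671 for day 0 against the E11.5 kidney, and 7735 in place of 2757 for the difference of culture changes, which was 1421 to 2726 with 1 array left out. The slide block gave 1920 in place of 5408 against E15.5, 2247 in place of 5462 against E17.5 and 3833 in place of 7541 against P0; leaving out 1 array gave 3473 to 5739 against E15.5. The stage slopes called 2747 with median scaling in place of 5185, and 537 to 5581 with 1 stage left out. Median scaling moved the median of all genes by 0.19 against the cultured kidney and 0.13 against E17.5, and normexp by 0.11 for day 0 against E11.5 and 0.13 against E15.5. Aqp4, Aqp6 and Aqp7 are dim probes, and Aqp5 and Aqp6 were below background on day 0, which limits their values there to bounds.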
